A study of Mus musculus with 10 samples.

Results

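Sterol regulatory element binding proteins (SREBPs) switch on the genes of cholesterol and fatty acid synthesis, and the 6 genes described here encode the 2 SREBPs, the membrane proteins that hold or release them, and a sterol carrier. They are Srebf1, Srebf2, Scap, Insig1, Insig2 and Stard4, taken by gene name from a table of 78317 genes, and 6 of 6 were present. All 6 had a mean of at least 1 TPM (the deposited transcript level, corrected for transcript length and scaled to the same total in each library) and were among the 15680 genes tested. RNA was sequenced after poly(A) selection from 1-mm punches of medial prefrontal cortex from mice labelled as wild type. The control group held 5 libraries, numbered 3, 4, 5, 7 and 9, from mice injected with a control adeno-associated virus (AAV). The miR-130a group held 5 libraries, numbered 13, 14, 15, 17 and 18, from mice injected with an AAV that overexpresses the microRNA miR-130a-3p. Age, sex, virus serotype, the promoter that drives the microRNA and the number of mice are not given in the sources used here. The comparison asks which of these transcripts differ when the microRNA is overexpressed.

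SREBPs are made as precursors in the membrane of the endoplasmic reticulum. SCAP escorts them to the Golgi apparatus, where proteases free the part that enters the nucleus; when sterols are plentiful, INSIG proteins hold SCAP and its SREBP back. In adult brain, where cholesterol does not cross the blood-brain barrier, sterols are made locally, largely by astrocytes and oligodendrocytes, with some synthesis in neurons.

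Of the 6 genes, Insig1 and Stard4 were higher in the miR-130a group, Srebf1 was lower, and Srebf2, Scap and Insig2 did not pass an adjusted p of 0.05. Those are 2 of 6 higher and 1 of 6 lower in limma, a linear model fitted over all genes. Across all genes tested, 13.5% passed in either direction, 2.19% as higher and 11.3% as lower. The group ranges were separate for the same 3 genes. Without control libraries 7 and 9, which earlier analysis of these data had set apart, these 3 passed and so did Scap, as lower. In that setting 2.30% of all genes tested were higher and 15.6% lower. Separation with the miR-130a group above occurred in 1.85% of all genes tested, and separation with it below in 9.46%. The median log2 difference over all genes was -0.09, so each difference below is also given relative to that median.

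The overexpressed microRNA is shown here with its seed, bases 2 to 8, in capitals, since the seed decides which messages it can pair with; the RefSeq entry lies at chr2:84741116-84741137 of GRCm38.p6 on the minus strand.
miR-130a-3p: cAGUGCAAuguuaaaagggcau
The letters that pair with this seed are TTGCACT, and TGCACTA pairs with bases 2 to 7 and adds an A. Neither occurred in the longest annotated 3′ untranslated region of any of the 6 genes, in regions of 149 bases for Scap to 4231 bases for Stard4. Of 13268 tested genes with such a region, 16.0% held at least 1 of these letter strings. The search used GENCODE M21 transcripts, and its outcome describes those letters in those regions only. The Mir130a gene itself was listed at 0 in all 10 libraries, as was Mir33, a microRNA gene inside Srebf2, in these libraries made from poly(A) RNA.

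Srebf1 (ENSMUSG00000020538) encodes SREBP-1, whose SREBP-1a and SREBP-1c forms come from different start sites, with SREBP-1c favouring genes of fatty acid synthesis. It stood at 37.3, 35.8, 33.2, 36.5 and 37.0 TPM in control libraries 3, 4, 5, 7 and 9, and at 21.9, 17.1, 21.0, 28.4 and 25.4 TPM in miR-130a libraries 13, 14, 15, 17 and 18. Every miR-130a library lay below every control, and the controls were closely grouped, with a coefficient of variation of 4.65% against 18.9%. The mean fell from 36.0 ± 1.67 to 22.8 ± 4.31 TPM (SD, n = 5 each), a log2 difference of -0.66 ± 0.12 (SE) and -0.56 relative to all genes (limma adjusted p = 0.00576). The exact 2-sided permutation p was 0.00794, the smallest that 5 against 5 libraries can give. The table gives 1 value per gene, so SREBP-1a and SREBP-1c are not told apart. In bulk tissue, fewer cells of a type and less RNA per cell cannot be told apart either.

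Srebf2 (ENSMUSG00000022463) encodes SREBP-2, the form that mainly drives cholesterol synthesis. Its levels were 119, 154, 157, 117 and 78.8 TPM in control libraries 3, 4, 5, 7 and 9 and 123, 116, 124, 154 and 125 TPM in miR-130a libraries 13, 14, 15, 17 and 18. All miR-130a libraries lay inside the control range, and control library 9 was the lowest of the 10. The means were 125 ± 31.9 and 129 ± 14.9 TPM (SD, n = 5 each). The log2 difference was 0.07 with a 95% interval of -0.30 to 0.44 (limma adjusted p = 0.831). Without control library 9 the difference was -0.083 (limma adjusted p = 0.663), so even its sign rested on that library.

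Stretches around annotated start sites are printed for Srebf1, Srebf2 and Insig1, because SREBPs are known to act on promoters of their own regulators. Each window runs from 250 bases before to 50 after a RefSeq start site in GRCm38.p6, and capitals mark matches, on either strand, to 4 letter patterns. These were the sterol-element-like TCACNCCA, the palindromic E-box CACGTG, the CCAAT box CCAAT and the GC box GGGCGG. The Srebf1 window (chr11:60210422-60210721, minus strand) is the most downstream of 3 in the table, the Srebf2 window lies at chr15:82147019-82147318 (plus strand), and the Insig1 window at chr5:28071162-28071461 (plus strand).
Srebf1: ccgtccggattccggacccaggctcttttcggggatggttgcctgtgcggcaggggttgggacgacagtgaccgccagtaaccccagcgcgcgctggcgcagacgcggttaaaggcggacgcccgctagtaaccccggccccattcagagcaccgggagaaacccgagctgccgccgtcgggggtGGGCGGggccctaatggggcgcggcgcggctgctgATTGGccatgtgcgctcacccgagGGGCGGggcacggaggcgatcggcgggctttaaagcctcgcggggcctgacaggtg
Srebf2: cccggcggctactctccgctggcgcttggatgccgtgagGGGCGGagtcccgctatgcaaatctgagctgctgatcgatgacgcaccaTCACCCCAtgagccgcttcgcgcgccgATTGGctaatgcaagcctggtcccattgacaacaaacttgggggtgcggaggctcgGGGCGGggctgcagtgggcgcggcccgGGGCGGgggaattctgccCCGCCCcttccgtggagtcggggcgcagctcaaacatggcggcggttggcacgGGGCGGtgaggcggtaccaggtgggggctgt
Insig1: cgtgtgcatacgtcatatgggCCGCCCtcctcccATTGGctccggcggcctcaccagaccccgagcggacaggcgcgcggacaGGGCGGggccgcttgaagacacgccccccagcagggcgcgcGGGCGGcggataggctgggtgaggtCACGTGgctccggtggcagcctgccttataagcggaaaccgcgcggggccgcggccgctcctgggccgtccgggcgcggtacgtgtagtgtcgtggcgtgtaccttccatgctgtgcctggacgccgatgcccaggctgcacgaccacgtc
The Srebf2 window held the sterol-element-like pattern 162 bases before the start, a CCAAT box 135 bases before it and 5 GC boxes. The Insig1 window held 1 E-box at 101 bases before the start, 1 CCAAT box at 216 and 3 GC boxes, and the Srebf1 window 1 CCAAT box at 30 and 2 GC boxes. Among 32851 windows of this length, 4.36% held the sterol-element-like pattern, 7.15% the E-box, 37.4% the CCAAT box and 35.7% the GC box. Of 10 windows found for 5 of the 6 genes, the Srebf2 window alone matched TCACNCCA, and no base lay in more than 1 match. The patterns were chosen after the windows were seen, so the shares beside them are descriptive. A window without a match to TCACNCCA may hold a variant that these letters do not cover, so no element is shown to be absent. These matches describe letters in a reference sequence and are not measured binding.

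Scap (ENSMUSG00000032485) encodes the sterol-sensing escort of both SREBPs. Control libraries 3, 4, 5, 7 and 9 stood at 55.8, 60.6, 60.3, 55.5 and 36.4 TPM, and miR-130a libraries 13, 14, 15, 17 and 18 at 37.8, 36.5, 36.5, 39.4 and 45.4 TPM. Of the 5 controls, 4 lay above every miR-130a library and control library 9 lay below all of them. The means were 53.7 ± 9.98 and 39.1 ± 3.70 TPM (SD, n = 5 each), with a log2 difference of -0.43 ± 0.14 (SE) and -0.34 relative to all genes. This did not pass (limma adjusted p = 0.0596), while the exact permutation test on this gene alone gave an unadjusted p of 0.0476. Without control library 9 the difference was -0.56 and passed (limma adjusted p = 0.00237), and without control libraries 7 and 9 it was -0.58 (limma adjusted p = 0.00665). In those settings 18.6% and 15.6% of all genes tested were lower, against 11.3% with all libraries. With median-ratio scaling, which brings the median of all genes near 0, the Scap difference was -0.31 and did not pass (limma adjusted p = 0.0906).

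Insig1 (ENSMUSG00000045294) encodes the INSIG protein whose gene is itself a known SREBP target, so that its level is often read as a gauge of SREBP activity. Its levels were 32.8, 37.5, 36.0, 31.8 and 27.0 TPM in control libraries 3, 4, 5, 7 and 9, and 53.1, 57.9, 78.2, 57.3 and 48.1 TPM in miR-130a libraries 13, 14, 15, 17 and 18. The lowest miR-130a library, number 18, lay above the highest control, number 4. The mean rose from 33.0 ± 4.07 to 58.9 ± 11.5 TPM (SD, n = 5 each), 1.78-fold. The log2 difference was 0.81 ± 0.13 (SE), or 0.90 relative to all genes (limma adjusted p = 0.00339; exact permutation p = 0.00794, the smallest possible). Among all genes tested, Insig1 lay at the 99.1 percentile of log2 differences, Stard4 at 98.8 and Srebf1 at 8.57.

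Insig2 (ENSMUSG00000003721) encodes the second INSIG protein, which also retains SCAP and whose gene is not a typical SREBP target. It was at 25.7, 37.5, 26.2, 30.3 and 25.7 TPM in control libraries 3, 4, 5, 7 and 9 and at 36.0, 28.6, 41.9, 39.1 and 26.2 TPM in miR-130a libraries 13, 14, 15, 17 and 18. The groups overlapped, with miR-130a libraries 13, 14 and 18 inside the control range. The means were 29.1 ± 5.07 and 34.4 ± 6.73 TPM (SD, n = 5 each). The log2 difference of 0.23 had a 95% interval of -0.10 to 0.55 (limma adjusted p = 0.360), which includes 0. The 95% interval of Insig1, 0.51 to 1.10, overlaps that of Insig2 at its upper end.

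Stard4 (ENSMUSG00000024378) encodes a small soluble protein that carries cholesterol between membranes, and its gene is a known target of SREBP-2. Control libraries 3, 4, 5, 7 and 9 held 9.24, 8.87, 9.33, 7.04 and 6.38 TPM, and miR-130a libraries 13, 14, 15, 17 and 18 held 12.7, 13.2, 19.5, 13.1 and 12.8 TPM. All miR-130a libraries exceeded all controls, and 4 of them lay within a narrow band below library 15. The mean rose from 8.17 ± 1.37 to 14.2 ± 2.96 TPM (SD, n = 5 each), 1.74-fold. The log2 difference was 0.73 ± 0.15 (SE), or 0.82 relative to all genes (limma adjusted p = 0.00804; exact permutation p = 0.00794). Without library 15 it was 0.62 (limma adjusted p = 0.0121).

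**Figure D1:**
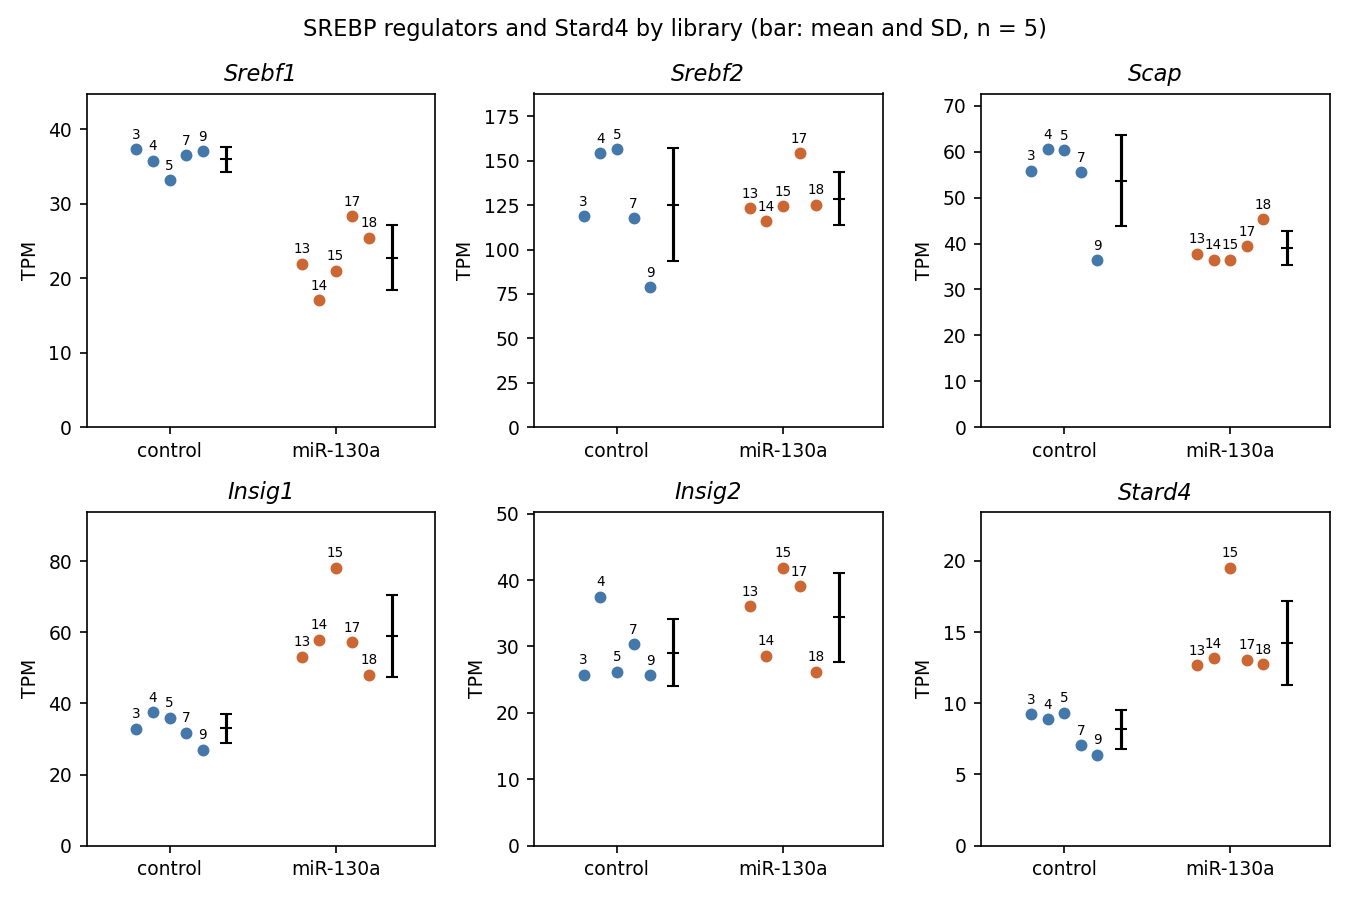
TPM of each gene in each library, with control libraries on the left and miR-130a libraries on the right of each panel; numbers are library numbers and the bar is the mean with SD (n = 5). The ranges of the groups are separate for Insig1 and Stard4 (miR-130a above) and for Srebf1 (miR-130a below), while Srebf2, Scap and Insig2 overlap between the groups.

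The order of the 6 levels, which TPM allows because it corrects for length, differed between the groups. By mean level over the 10 libraries, Srebf2 lay at the 92.8 percentile of genes tested, Scap at 80.2, Insig1 at 80.1, Insig2 at 72.8, Srebf1 at 70.8 and Stard4 at 47.3. In control libraries Srebf2 was highest (125 ± 31.9 TPM), followed by Scap, Srebf1, Insig1 and Insig2, with Stard4 lowest (8.17 ± 1.37 TPM; SD, n = 5). Srebf2 exceeded Scap in 5 of 5 control libraries and Insig2 exceeded Stard4 in 5 of 5, with separate ranges, whereas Scap, Srebf1, Insig1 and Insig2 overlapped with their neighbours in that order. In miR-130a libraries Insig1 held the second place with a range separate from those of Srebf2 above and Scap below. Srebf1 came next to last there, below Insig2 in 5 of 5 libraries and above Stard4 in 5 of 5, although in each case the ranges overlapped.

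Across libraries Insig1 and Stard4 had the most similar profiles of the 6 genes. After each gene was centred on its own mean, their log2 values differed by a root mean square of 0.10 over the 10 libraries, against 0.28 for the next closest pair, Srebf1 and Scap. Since the measure includes the group difference, and both genes were called higher, their closeness partly restates those calls. Insig1 and Stard4 were each lowest in control library 9 and highest in miR-130a library 15. Srebf2 and Scap were also lowest among controls in library 9 and Insig2 was at 25.7 TPM in libraries 3 and 9, while Srebf1 stood at 37.0 TPM there, inside the range of the other controls.

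**Figure D2:**
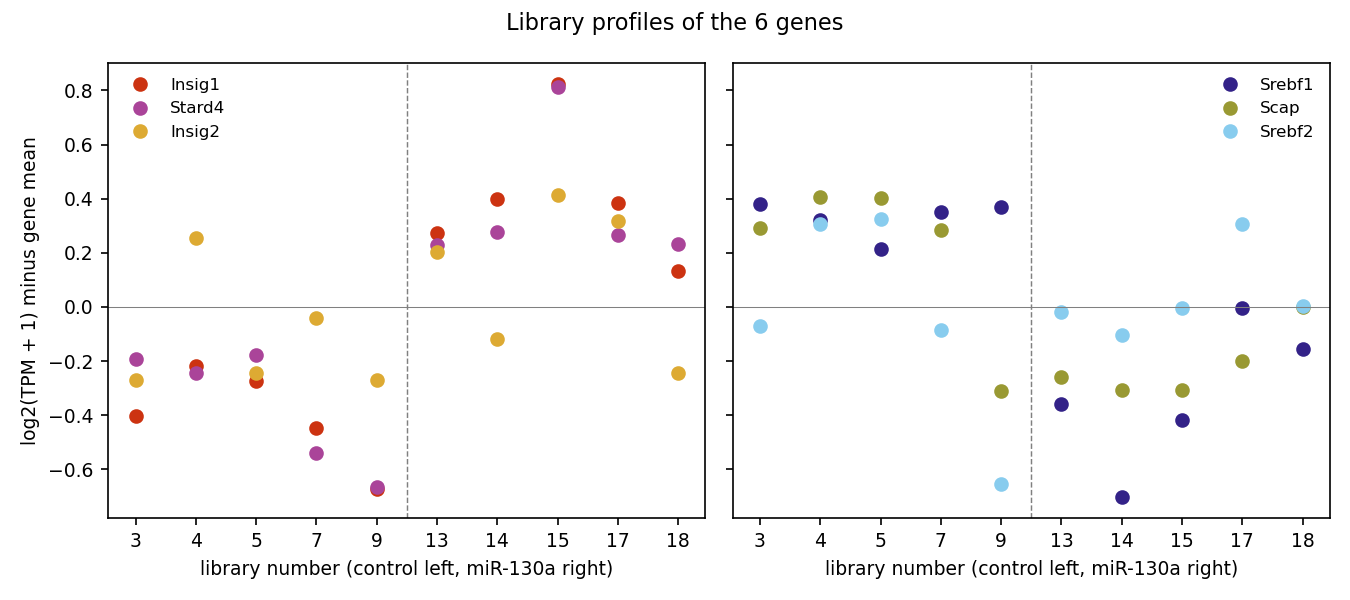
Log2(TPM + 1) of each gene minus its mean over the 10 libraries (y axis), by library number (x axis), with controls left of the dashed line. Points of Insig1 and Stard4 lie close together in each library (root mean square difference 0.10), and control library 9 is low for Srebf2, Scap, Insig1 and Stard4 but not for Srebf1.

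Ratios of these genes within a library do not move with the scaling of the library, and 3 were compared. The Insig1 to Insig2 ratio was 1.28, 1.00, 1.37, 1.05 and 1.05 in control libraries 3, 4, 5, 7 and 9 and 1.47, 2.02, 1.87, 1.47 and 1.83 in miR-130a libraries 13, 14, 15, 17 and 18. The groups were separate, with means of 1.15 ± 0.165 and 1.73 ± 0.250 (SD, n = 5 each). The Srebf1 to Srebf2 ratio ranged from 0.212 to 0.469 in controls and from 0.147 to 0.203 in miR-130a libraries, with means of 0.308 ± 0.101 and 0.176 ± 0.0204 (SD, n = 5 each). The sum of Insig1 and Insig2 per Scap, the balance between retention proteins and escort at the level of RNA, was 1.05, 1.24, 1.03, 1.12 and 1.45 in controls and 2.36, 2.37, 3.29, 2.44 and 1.64 in miR-130a libraries, in the same library order. Its means were 1.18 ± 0.172 and 2.42 ± 0.587 (SD, n = 5 each), a log2 difference of 1.02. For each of the 3 ratios the exact permutation p was 0.00794 (2-sided), the smallest that 5 against 5 libraries can give. Benjamini-Hochberg adjustment over 3 equal values leaves it at 0.00794. Each ratio contains Insig1 or Srebf1, whose ranges were already separate, so the ratios restate those differences and are no independent support. These are ratios of RNA and say nothing of protein amounts.

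**Figure D3:**
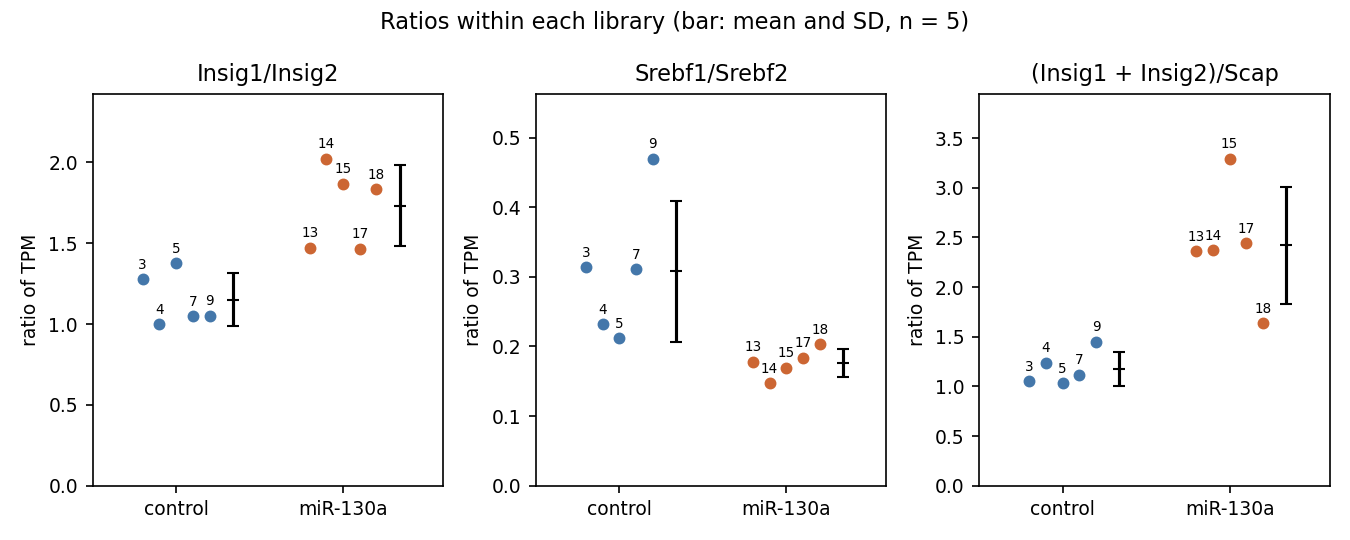
Ratio of TPM within each library for Insig1 to Insig2, Srebf1 to Srebf2, and the sum of Insig1 and Insig2 to Scap (y axes), with library numbers beside the points and bars for mean and SD (n = 5). The groups are separate in all 3 panels; the smallest gap in the third is between control library 9 at 1.45 and miR-130a library 18 at 1.64.

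Some enzymes of cholesterol synthesis, a pathway that SREBP-2 is known to drive, were also higher in the miR-130a group. The counts below stand against 2.19% of all genes tested called higher and 11.3% called lower. Of 9 enzymes of the mevalonate stage, the first part of cholesterol synthesis, 6 were higher, 0 lower, and 3 did not pass. The list median was 0.62, against -0.09 over all genes. The 3 with the lowest p were Hmgcs1, which makes the precursor of mevalonate, Idi1, an isomerase of isoprene units, and Fdps, which joins them. Idi1 rose from 15.1 ± 1.11 to 30.1 ± 7.99 TPM and Fdps from 87.8 ± 12.5 to 157 ± 34.6 TPM (SD, n = 5 each; limma adjusted p = 0.00326 and 0.00581). The log2 difference of Hmgcs1 was 1.07 (limma adjusted p = 0.00205). Of 13 enzymes of the later sterol branch, 8 were higher, 0 lower and 5 did not pass, with a list median of 0.57. Msmo1, a sterol demethylating oxidase, had the largest log2 difference of the list at 1.15 (limma adjusted p = 0.000607). Tm7sf2, a sterol reductase, rose from 13.1 ± 2.55 to 25.8 ± 4.99 TPM and Nsdhl, which acts beside Msmo1 in demethylation, from 14.4 ± 1.99 to 25.0 ± 4.88 TPM (SD, n = 5 each; limma adjusted p = 0.00339 and 0.00670). Insig1 and Stard4 had log2 differences, 0.81 and 0.73, inside the range of the called enzymes of these lists, 0.47 for Sc5d to 1.15 for Msmo1. The threshold itself keeps small differences out of that range. Counting enzymes that did not pass, log2 differences reached down to 0.001 in the mevalonate list and -0.04 in the sterol branch list. Without control libraries 7 and 9, 5 mevalonate and 7 sterol branch enzymes were higher and 0 lower. In that setting 2.30% of all genes tested were higher and 15.6% lower.

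Genes of fatty acid synthesis, many of them SREBP-1 targets, showed no common direction beside the lower Srebf1. Of 18 listed and 17 tested, 1 was higher, 2 were lower and 14 did not pass, with a list median of 0.09. Across all genes tested, 2.19% were higher and 11.3% lower, so 2 lower of 17 is near the share of all genes. Mid1ip1, an activator of acetyl-CoA carboxylase, fell from 125 ± 20.8 to 75.0 ± 11.5 TPM and Lpin1, a phosphatidate phosphatase, from 7.41 ± 0.614 to 5.31 ± 0.433 TPM. Elovl6, a fatty acid elongase, rose from 7.36 ± 0.640 to 12.3 ± 4.07 TPM (SD, n = 5 each; limma adjusted p for these 3 genes 0.00557, 0.0186 and 0.0411). Fasn, the fatty acid synthase, was picked with its values known; levels of 113 ± 31.0 and 92.9 ± 22.9 TPM did not differ past the threshold (SD, n = 5 each; limma adjusted p = 0.459). The call of Elovl6 was lost without control library 3 or 7, without miR-130a library 13, 14, 15 or 18, without control libraries 7 and 9, and with no filter on low values, each leaving 0 higher and 2 lower. Median-ratio scaling gave 2 higher and 2 lower, and quantile normalization 3 higher and 1 lower.

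Of 23 genes for transport, cleavage and turnover of SREBPs, 0 were higher, 3 were lower and 20 did not pass, where 11.3% of all genes tested were lower, and the list median of -0.14 was close to the -0.09 of all genes. Among the lower genes, Aup1 and Ube2g2 serve degradation of endoplasmic reticulum proteins. Aup1 fell from 57.7 ± 2.37 to 45.8 ± 4.92 TPM and Ube2g2 from 40.6 ± 1.58 to 32.2 ± 3.78 TPM (SD, n = 5 each; limma adjusted p = 0.0313 and 0.0350). The direction of calls in this list moved with the scaling, since median-ratio scaling gave 4 higher and 0 lower, and quantile normalization 3 higher and 1 lower. Leaving out single libraries gave between 0 and 7 calls, the 7, all lower, without control library 9, and without control libraries 7 and 9 there were also 7 lower. In those settings 18.6% and 15.6% of all genes tested were lower. The site-1 protease gene Mbtps1 and the site-2 protease gene Mbtps2, which cleave SREBPs and are named here after their values were seen, had log2 differences of -0.39 and 0.16 and did not pass (limma adjusted p = 0.102 and 0.486).

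Among 12 tested sterol transfer proteins other than Stard4, 0 were higher, 1 was lower and 11 did not pass, with a list median of -0.23. Across all genes tested, 11.3% were lower, so this count is not above the share of all genes. The lower one was Npc2, which hands cholesterol out of the lysosome, at 79.5 ± 31.8 and 37.0 ± 6.29 TPM (SD, n = 5 each; limma log2 difference -1.02, adjusted p = 0.0120). Its partner Npc1 was at 37.7 ± 7.15 and 27.8 ± 4.93 TPM and the START protein Stard5 at 4.27 ± 0.721 and 3.21 ± 0.272 TPM, neither passing (limma adjusted p = 0.0815 and 0.120). Without control library 9, or without control libraries 7 and 9, 3 of this list were lower, and without miR-130a library 18, 2 were lower. In those settings 18.6%, 15.6% and 9.99% of all genes tested were lower, in the same order. The list of LXR and oxysterol genes includes genes that sterol excess induces through the nuclear receptor LXR. Of 10 tested, 0 were higher and 5 lower, with a median of -0.45, where 11.3% of all genes tested were lower. The exporter Abca1 fell from 10.6 ± 1.97 to 3.84 ± 0.845 TPM, the exporter Abcg1 from 22.6 ± 1.64 to 13.2 ± 2.27 TPM, and Soat1, which esterifies cholesterol for storage, from 11.8 ± 3.17 to 5.63 ± 1.42 TPM (SD, n = 5 each; limma adjusted p = 0.000927, 0.00282 and 0.00977). Srebf1 is itself a known LXR target. Its log2 difference of -0.66 lay between those of Abcg1 at -0.74 and Nr1h2 at -0.51, both named after their values were seen. Nr1h2 encodes an LXR receptor, and its group ranges overlapped. Whether LXR had a part in the lower Srebf1 was not tested. Without control libraries 7 and 9, 5 genes of the LXR list were lower, and with quantile normalization 3. Leaving out single libraries gave 4 to 6 lower.

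**Figure D4:**
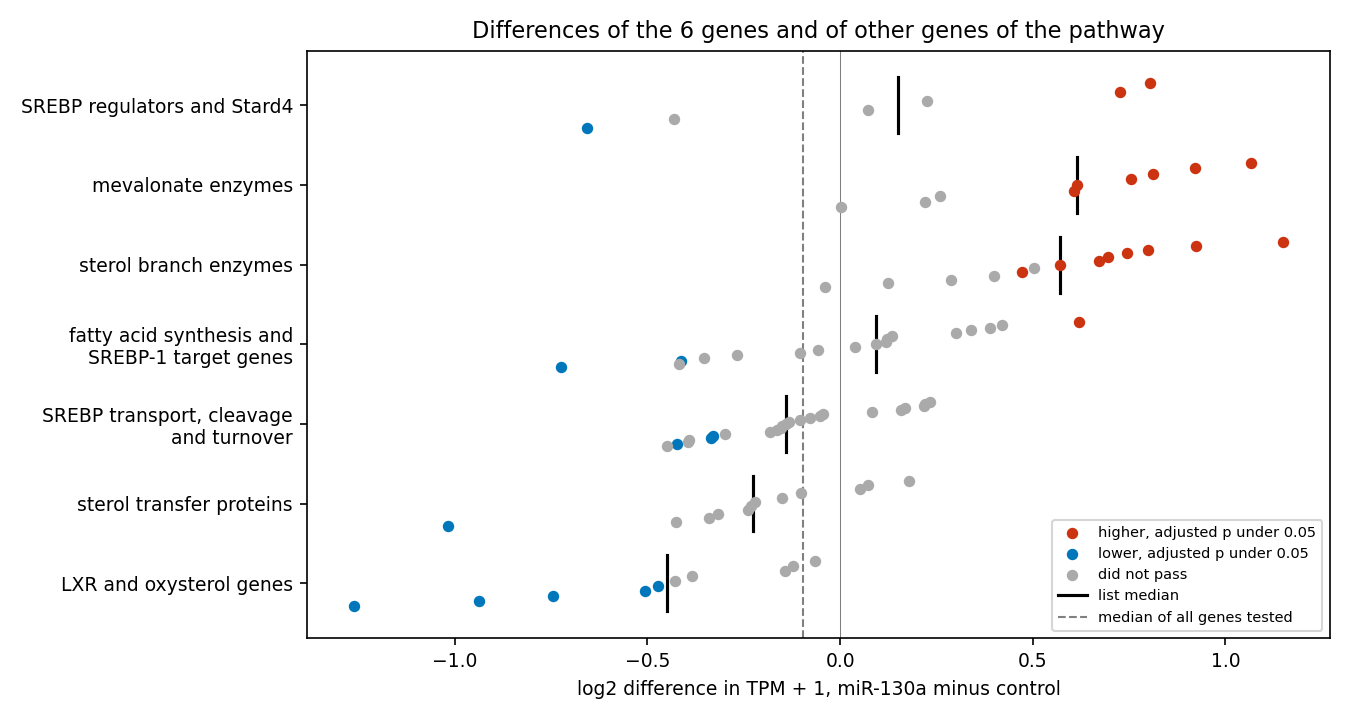
Log2 difference in TPM + 1 between miR-130a and control libraries (x axis) for each tested gene of 7 lists (rows), coloured by the limma call at an adjusted p of 0.05; black bars are list medians and the dashed line is the median of all genes tested at -0.09. Called genes of the mevalonate and sterol branch lists lie to the right, called LXR and oxysterol genes to the left, and the 6 genes described here span both sides.

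Genes most like each member were found as the protein-coding genes with the smallest root mean square difference between centred log2 profiles over the 10 libraries. For Insig1 these were Cdkl2 (0.10), the sterol demethylase gene Cyp51 (0.15) and Rhbdl3 (0.17). For Stard4 they included Cyp51 (0.11) and Cdkl2 (0.12). For Srebf1 they were the pericyte receptor Pdgfrb (0.09), the lysosomal sulfatase Sgsh (0.10) and the microglial gene Tmem119 (0.10). Scap was closest to Smg9, Dhx8 and Phf2 (0.06 each), Srebf2 to Tmem178 (0.08), Irgq (0.08) and Kcnc4 (0.08), and those named for Insig2 are Mfsd13a (0.13) and Egfl7 (0.14). The median over all such genes lay between 0.32 for Scap and 0.53 for Insig1. Since the measure includes the group difference, a gene with the same difference between groups ranks high.

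Markers of several cell types also differed between the groups. The counts below stand against 2.19% of all genes tested called higher and 11.3% called lower. Of 10 microglial markers, 9 were lower and 0 higher, and their summed level ranged from 1769 to 3711 TPM in control and from 681 to 990 TPM in miR-130a libraries. All 6 reactive astrocyte markers were lower (summed 445 to 937 and 116 to 244 TPM), as were 5 of 6 endothelial markers (175 to 196 and 117 to 150 TPM) and 5 of 6 markers of mural cells and fibroblasts (193 to 270 and 115 to 166 TPM). Of 4 tested of 7 lymphoid and border myeloid markers, 2 were lower (8.69 to 54.2 and 2.25 to 7.93 TPM for all 7). Inhibitory neuron markers had 2 of 7 higher, Sst and Vip, and 0 lower (898 to 1147 and 1264 to 1651 TPM). Sst alone, at means of 645 and 1065 TPM, made up most of that sum. Of the 7, 5 had positive log2 differences, while Lhx6 and Slc32a1 were at -0.08 and -0.02. Excitatory neuron markers, at 1695 to 3243 and 2044 to 2521 TPM, had 0 of 8 called, as did the 10 oligodendrocyte markers (2163 to 3872 and 1339 to 3744 TPM) and the 6 precursor markers (151 to 224 and 114 to 185 TPM). Of 10 general astrocyte markers 1 was lower (1708 to 2121 and 1768 to 2213 TPM), and of 5 striatal markers 1 was lower (83.5 to 127 and 84.0 to 115 TPM). The astrocyte sum hides mixed directions, with 3 of 10 log2 differences positive and a list median of -0.23. Its largest marker, Aldoc, was among the positive ones, at means of 711 and 883 TPM, and did not pass. No listed marker was at 0 in all libraries. The part of any cell type in the differences of Srebf1, Insig1 and Stard4 was not tested. Mitochondrially encoded genes took 13.04% to 16.4% of TPM in control and 16.0% to 19.9% in miR-130a libraries, which was also not tested as a contributor.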

How the data were processed

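The authors deposited TPM per gene and library, per the file headers; the submitters' processing notes name fastp, HISAT2, RSEM, DESeq2 and GRCm39, with roles and versions not given in the sources used here. RNA was poly(A)-selected and libraries were stranded, per the labels' protocols. TPM keeps no depth, so no counting interval could be given, and no count model was run. The 2 deposited columns of group means were not used.

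Values were analysed as log2(TPM + 1), which understates changes of low genes. Genes with a mean of at least 1 TPM were fitted with limma 3.58.1 (trend, 2-sided) in R 4.3.3, 5 against 5 libraries, with Benjamini-Hochberg adjustment over 15680 genes and a threshold of 0.05. The script was tested on simulated data. The labels do not say that libraries are separate mice, so the spread behind each p-value may be technical. All control numbers precede all miR-130a numbers, and handling in number order and the group cannot be told apart. Ratios and single genes were tested by exact permutation over libraries.

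The members and lists were chosen with earlier results of these data known. Named genes are the 6 members, the 3 genes of lowest p in each pathway list and the 3 nearest profiles per member (some genes this rule selects are not reported here); others are said to be chosen later, except Sc5d and Nr1h2, named as neighbours in a range after their values were seen. Sequences are from RefSeq (GRCm38.p6) and GENCODE M21 (GRCm38), not the build of the processing notes. Promoter patterns were chosen after the windows were seen. Figures used Python 3.11.15 and matplotlib 3.10.9. Alternatives covered pseudocounts of 0.1 and 0.5, filters, scaling, robust variance moderation and left-out libraries.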

Additional observations from a re-analysis of the deposited data

Results flagged for a closer look

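In 18 sets of 5 libraries (6 genes and 3 ratios in each group), 3 had 1 library far from the rest by Dixon's criterion, which chance meets in about 1 of 20 sets. Stard4 in miR-130a library 15 was at 19.5 TPM, with the other 4 between 12.7 and 13.2 TPM. Scap in control library 9 was at 36.4 TPM, with the other 4 between 55.5 and 60.6 TPM. Srebf2 in miR-130a library 17 was at 154 TPM, with the other 4 between 116 and 125 TPM; without it the log2 difference of Srebf2 was 0.00493 (limma adjusted p = 0.990).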

How the results depend on the processing

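Insig1, Stard4 and Srebf1 kept direction and call in all 20 alternatives, with log2 differences from 0.70 to 0.92, 0.57 to 0.92 and -0.74 to -0.53. Insig2 never passed. With single libraries left out, log2 differences ranged from -0.083 to 0.16 for Srebf2 and from -0.56 to -0.38 for Scap. Without control libraries 7 and 9, Srebf2 was at -0.15 (limma adjusted p = 0.429) and Scap passed at -0.58; the cause was not tested. The members called were 3 in all alternatives except 4 without control library 9 and without control libraries 7 and 9. In those settings 18.6% and 15.6% of all genes tested were lower. All 3 ratios kept p under the threshold in all 11 sets of left-out libraries. Genes called over the whole table numbered 2110, 1302 with no filter on low values, and 1254 to 3421 with single libraries left out, the extremes being control libraries 7 and 9. The transport, cleavage and turnover list had 3 calls, 1 with no filter, 5 at a mean of at least 5 TPM, 0 without mitochondrially encoded genes, 7 without control libraries 7 and 9, and 0 to 7 with single libraries left out. The sterol transfer list had 1 call, 1 to 3 with single libraries left out and 3 without control libraries 7 and 9. Fatty acid synthesis calls were 1 higher and 2 lower, and between 0 and 3 higher and 1 and 2 lower over the alternatives. LXR and oxysterol calls were 5, 3 with quantile normalization and 4 to 6 with single libraries left out. They were 4 with no filter on low values, with median-ratio scaling and without mitochondrially encoded genes. Median-ratio scaling and quantile normalization moved the median of all genes by 0.10 and 0.15, and higher genes then made up 42.0% and 50.6% of calls, against 16.3% as deposited (866 higher and 1198 lower, and 1071 and 1046, against 343 and 1767). No paired analysis was possible because the groups share no replicate numbers. Depth is unknown, so it sets no stated limit.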
